A study of Homo sapiens with 8 samples.

Results

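SKBR-3 is a human breast carcinoma cell line with amplified HER2 (ERBB2) and without estrogen and progesterone receptors. The comparison described here set 1 library of SKBR-3 cells given 300 nM JQ1 for 48 h against 1 library of the same line given DMSO, the vehicle, for 48 h. These are 2 of the 8 libraries of the series, all of poly(A) RNA. The other 6 were SKBR-3 given 300 nM lapatinib, which inhibits the kinases of EGFR and HER2, or 300 nM of each drug together, and BT474m1, another HER2-amplified breast cancer line, given the same 4 treatments. All were grown in RPMI medium with serum, and all times were 48 h by the labels. Genes were members if their value was 100 or more in either of the 2 SKBR-3 libraries, which held for 9962 of the 20531 genes in the deposited tables. A value is an estimated read count, scaled by the authors to place the upper quartile of detected genes at 1000 in each library.

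JQ1 occupies the bromodomains of the BET proteins, such as BRD2 and BRD3, with which they bind acetylated histone tails. BET proteins help to bring the kinase complex P-TEFb, made of CDK9 and a cyclin T, to promoters and enhancers, where P-TEFb releases paused RNA polymerase II into elongation. HEXIM1 holds P-TEFb in an inactive complex with the 7SK RNA. In HER2-driven breast cells, BET proteins are studied for their part in the expression of receptor kinases and of lineage transcription factors.

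No difference below has a test, since each side was 1 library. A gene is called raised or lowered when its value differed at least 2-fold, that is when the difference of log2(value + 1), given as the log2 fold change, was 1 or more in size. The 95% intervals are exact Clopper-Pearson intervals computed from reads, and cover counting error only: they say nothing of the spread between cultures, and reads copied by PCR and carrying no molecular identifier need not be separate molecules. Depth was 22082539 reads on genes with DMSO and 27143874 with JQ1. One library stood apart in how its reads were spread: the 20 highest genes took 14% of the summed values with JQ1, against 6.83% to 11.1% in the other 7 libraries. Scaling to equal totals in place of the upper quartile would shift log2 fold changes by -0.15, and by less where a value is low.

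Markers of luminal epithelium were high, with 1 exception. KRT8, KRT18, KRT19 and EPCAM were at 59145, 27539, 70271 and 4518 with DMSO, whereas CDH1, the epithelial cadherin, was near 0 at 4.29 with DMSO and 2.58 with JQ1. PTPRC, PECAM1, COL1A2, DCN and LUM, which mark leukocytes, endothelium and fibroblasts, were listed at 0 in both libraries. Of the 17 markers of basal, fibroblast, endothelial, leukocyte and fat cells, 3 reached 100 with DMSO, namely COL1A1 (124), CDH5 (126) and CD68 (178), and with JQ1 these were at 81.2, 20 and 206.

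JQ1 lowered more genes than it raised. Of the 9962 genes, 239 (2.4%) were raised at least 2-fold and 593 (5.95%) were lowered at least 2-fold, so that 71.3% of the changed genes were lower with JQ1. With equal totals the counts were 169 and 780, and 82.2% were lower. At 4-fold or more, 42 were raised and 139 lowered. Most genes moved little: 7826 (78.6%) differed by under 1.5-fold, and the median log2 fold change was -0.04. Because a gene entered through its higher library, 65 raised genes were under 100 with DMSO and 294 lowered genes were under 100 with JQ1. Those genes could enter only because they differed, and they are counted here without being taken as support. Among genes at 100 or more in both libraries, 174 were raised and 299 lowered. The shares of 2.4% raised and 5.95% lowered are those to set beside the counts given for lists below.

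**Figure D1:**
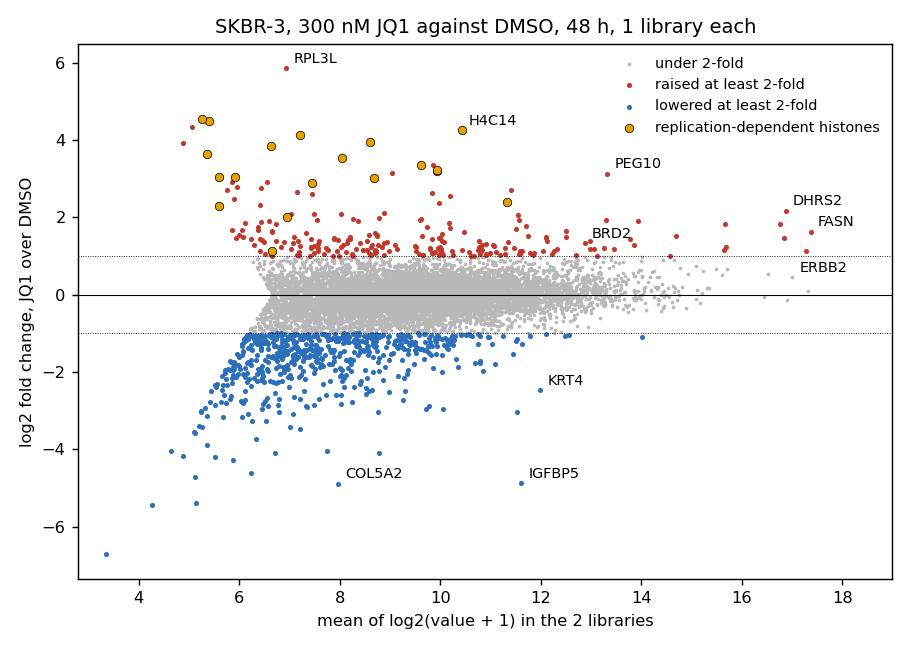
Each point is 1 of the 9962 genes, with the mean of log2(value + 1) in the 2 SKBR-3 libraries on the horizontal axis and the log2 fold change of JQ1 over DMSO on the vertical axis; dotted lines mark 2-fold. The lowered genes lie mostly toward the low end of the horizontal axis, whereas the raised genes reach its high end, where FASN and DHRS2 are labelled, and the 19 replication-dependent histone genes lie at log2 fold changes of 1.13 to 4.53.

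The raised and lowered genes sat at different levels. In the lowest quintile of genes by mean value, 3.76% were raised and 17% lowered, and in the highest quintile 3.21% were raised and 1.1% lowered. Where either library reached 1000, 114 were raised and 105 lowered. The lowest quintile holds most of the lowered genes that entered through DMSO alone: with 100 or more required in both libraries, 1.12% of its genes were raised and 4.02% lowered, while the highest quintile stayed at 3.21% and 1.1%.

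The genes raised most were dominated by histones. Most of the 15 genes raised most, histones among them, were under the filter value with DMSO. Those genes could enter only because they were higher with JQ1. RPL3L (chromosome 16, 1943974 to 1954689 on GRCh38.p14), a form of ribosomal protein L3 known from muscle, had the largest change: it was at 15 with DMSO and 927 with JQ1, a log2 fold change of 5.85 (95% interval 5.33 to 6.64). It was at 3.83 with lapatinib and 57.1 with both drugs, and under 2 in BT474m1 with DMSO or JQ1. Of the 15 genes raised most, 11 were replication-dependent histones. The others were RPL3L, DNAH3, an axonemal dynein heavy chain (6.44 to 150, log2 fold change 4.34), UPK3BL1 (6.59 to 114, 3.92) and MRFAP1L2 (288 to 2950, 3.35). UPK3BL1 overlaps a readthrough transcript with POLR2J2, and DNAH3 overlaps LDAF1, so their reads may be shared.

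Replication-dependent histone genes supply the nucleosome proteins of S phase. Their mRNAs normally end in a stem-loop and not in a poly(A) tail, so a poly(A) library holds only the part that is polyadenylated. The family is clustered on chromosomes 6 and 1, its copies are nearly identical in sequence, and reads of 1 copy can be assigned to another, so single genes are uncertain. Of 65 members, 56 were higher with JQ1, 4 were lower and 5 were listed at 0 in both libraries, and the median log2 fold change over all 65 was 1.84. Summed over the 65 genes, the value was 3270 with DMSO and 27628 with JQ1, 8.45 times as much. By class, the sum was 8.97 times as high for H1, 8.66 for H2A, 6.62 for H2B, 7.18 for H3 and 14.6 for H4. Single genes carried most of the H1 and H4 sums. H1-2 held 321 of 344 with DMSO and 2978 of 3083 with JQ1. H4C14 held 315 of 461 and 5994 of 6709. The folds of these classes need not hold for their other members.

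Only 19 of the 65 histone genes reached 100, and 13 of these did so with JQ1 alone. The 6 that had 100 or more with DMSO show the change without that condition on JQ1. H4C14 was at 315 with DMSO and 5994 with JQ1 (log2 fold change 4.25, interval 4.11 to 4.39). H2AC18 was at 247 and 2522 (3.35). H2AC6 was at 318 and 2976 (3.22, interval 3.09 to 3.37). These 3 genes encode an H4 and 2 H2A proteins. H1-2, a linker histone, was at 321 and 2978 (3.21, interval 3.07 to 3.35). H2BC5 was at 145 and 1173 (3.01). H2BC12 was at 1121 and 5883 (2.39, interval 2.31 to 2.47). The smallest of these 6 changes was thus more than 5-fold. Of the 13 others, H2BC21 went from 97.2 to 1521, and H3C4, which overlaps H2AC7, went from 6.92 to 182.

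**Figure D2:**
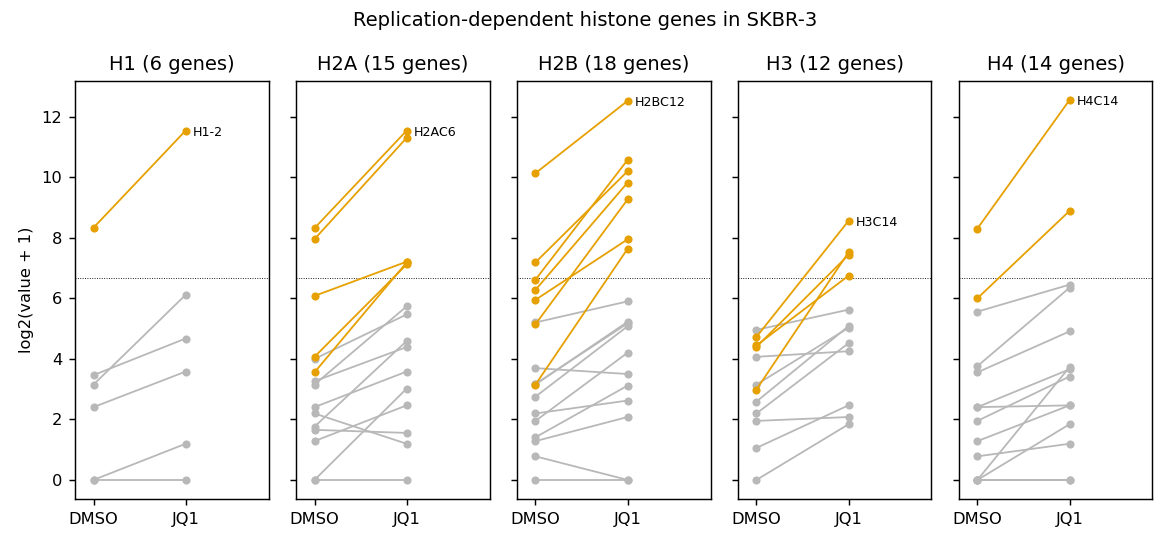
Lines join log2(value + 1) with DMSO and with JQ1 for each of the 65 replication-dependent histone genes, in a panel per class; orange lines are the 19 genes that reached 100, marked by the dotted line, and grey lines are the other 46. The lines of 56 genes rise, in all 5 classes, and the gene of highest value with JQ1 in each class is named.

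The promoters of these genes are shown because the family moved together. Histone promoters are known for a TATA box, CCAAT boxes, which NF-Y binds, and, in H2B genes, an octamer bound by OCT1. For each class the 150 bases before the start of the gene with the highest JQ1 value are given below, 5′ to 3′ on the strand of the gene, from RefSeq on GRCh38.p14. Capitals mark the TATA box letters TATAAA, the CCAAT box and the octamer ATTTGCAT on either strand. The windows are chr6:26056471-26056620 (minus strand) for H1-2, chr6:26124022-26124171 (plus) for H2AC6, chr6:27146859-27147008 (minus) for H2BC12, chr1:149841209-149841358 (minus) for H3C14 and chr1:149832507-149832656 (plus) for H4C14.
H1-2: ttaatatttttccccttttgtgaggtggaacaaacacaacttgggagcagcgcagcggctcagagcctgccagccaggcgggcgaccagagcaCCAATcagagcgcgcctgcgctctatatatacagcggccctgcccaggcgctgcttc
H2AC6: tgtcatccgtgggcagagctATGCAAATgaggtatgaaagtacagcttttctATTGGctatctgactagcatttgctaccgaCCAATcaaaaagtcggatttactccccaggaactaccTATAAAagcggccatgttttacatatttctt
H2BC12: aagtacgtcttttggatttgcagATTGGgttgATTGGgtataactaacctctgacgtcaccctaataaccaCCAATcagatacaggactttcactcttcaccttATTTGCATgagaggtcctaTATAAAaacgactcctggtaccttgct
H3C14: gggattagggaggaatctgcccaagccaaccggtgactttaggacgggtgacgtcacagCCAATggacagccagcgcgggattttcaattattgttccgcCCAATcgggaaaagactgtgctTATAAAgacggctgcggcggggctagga
H4C14: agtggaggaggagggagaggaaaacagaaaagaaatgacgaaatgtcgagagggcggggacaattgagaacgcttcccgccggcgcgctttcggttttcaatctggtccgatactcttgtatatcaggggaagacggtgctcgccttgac

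H2AC6 and H2BC12 held all 3 motifs in this window, H3C14 held TATAAA and CCAAT, H1-2 held CCAAT, and H4C14 held none. In the 250 bases before the start, 12 of the 19 histone genes that reached 100 held TATAAA, 17 held CCAAT and 10 held ATTTGCAT. Over all 27305 promoters, windows of the same length held them in 11.1%, 33% and 1.66% of cases. Over all 60 histone genes with a promoter in the reference, the shares were 65%, 85% and 43.3%, so the motifs mark the family whether or not a member reached 100. Of the raised genes outside the family, 162 had a promoter: 12.3% held TATAAA, 32.1% CCAAT and 3.09% ATTTGCAT. Among 467 lowered genes with a promoter, 4.93% held TATAAA, 24.8% CCAAT and 2.14% ATTTGCAT, and among all 8157 genes of 100 or more with a promoter the shares were 4.73%, 36.2% and 1.26%. A match is a stretch of letters and not a measured binding site.

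Replacement histones, which are made throughout the cell cycle from ordinary polyadenylated mRNAs, moved less. Of 11, 10 reached 100, 3 were raised and none was lowered, against 2.4% and 5.95% of all genes, and the median was 0.65. H2AJ went from 609 with DMSO to 1680 with JQ1 (log2 fold change 1.46), and H3-3B, which encodes H3.3, from 6396 to 14872 (1.22). CENPA, the centromeric H3, was at 609 and 333. All 6 factors listed for histone mRNA synthesis and processing reached 100. Of these, LSM11, a subunit of the U7 snRNP that cuts histone pre-mRNA, was lowered (376 to 164, -1.19), and SLBP, which binds the stem-loop, was at 1101 and 1472. NPAT, the coactivator of histone transcription, was at 686 and 780.

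Among the targets of JQ1, BRD2 was the only gene of its list past 2-fold. Of 15 genes for BET proteins, P-TEFb and its partners, 13 reached 100, with a median log2 fold change of 0.46. BRD2 was at 4737 with DMSO and 11948 with JQ1 (1.33, interval 1.29 to 1.38). BRD3 was at 501 and 819 (0.71), and BRDT, the testis form, was listed at 0 in all 8 libraries. CDK9 was at 599 and 976 (0.70), CCNT1 at 319 and 439 (0.46) and CCNT2 at 570 and 640 (0.17). ELL2, an elongation factor of the super elongation complex, was at 284 and 522 (0.87). Its scaffold proteins AFF4 and AFF1 were at 1609 and 2392 (0.57) and at 1575 and 1640 (0.06). The inhibitory side held HEXIM1 at 2112 and 3704 (0.81), LARP7 at 926 and 766 (-0.27) and MEPCE at 2239 and 2327 (0.06). MED1, a Mediator subunit, was at 22772 and 21858 (-0.06).

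Of the 4 genes listed as markers of BET inhibition, 1 passed 2-fold. ZMYND8, a chromatin reader, was lowered (1354 to 500, -1.44, interval -1.56 to -1.32). SERPINI1 was at 58.7 and 113 (0.94), ZCCHC24 at 117 and 160 (0.44), and HEXIM1 as given above. All 4 lay in the same direction as in BT474m1, where HEXIM1 was at 1204 and 2910 and ZMYND8 at 3557 and 795.

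MYC itself was nearly level in SKBR-3. It was at 2143 with DMSO and 1879 with JQ1 (log2 fold change -0.19, interval -0.26 to -0.12), whereas in BT474m1 it was at 463 and 37.2 (-3.60). None of the 11 genes of the MYC network that reached 100 passed 2-fold. The MYC partner MAX was at 989 and 1058 (0.10). MXD1 and MXD4, which compete with MYC for MAX, were at 263 and 429 (0.70) and at 348 and 541 (0.64). MGA was at 1064 and 1273 (0.26), and MNT, MXD3 and MXI1 were at -0.25, -0.21 and -0.40 on the log2 scale. MLX, MLXIP and MLXIPL, which form the arm that responds to glucose, had log2 fold changes of -0.50, 0.30 and -0.86. Ribosome biogenesis genes, a known output of MYC, had a median of -0.15 with none of 18 past 2-fold.

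Several of the genes with the most reads were raised. DHRS2, a mitochondrial short-chain reductase (chromosome 14, 23630115 to 23645639), was at 56702 with DMSO and 255026 with JQ1, a log2 fold change of 2.17, and its share of all values went from 0.36% to 1.46%. FASN, the fatty acid synthase (chromosome 17, 82078338 to 82098236), was at 96318 and 297865 (1.63), the highest value of the JQ1 library. KRT8 and KRT18, which pair in the filaments of simple epithelium, were at 59145 and 211202 (1.84) and at 27539 and 97486 (1.82). KRT19 was at 70271 and 194265 (1.47). GAPDH was at 108013 and 235992 (1.13). Other genes among the 10 with the most reads were nearer to level: H19, an imprinted noncoding RNA, was at 159004 and 169932 (0.10), ERBB2 at 112656 and 154570 (0.46), ACTB at 78049 and 112146 (0.52), RPL19 at 127319 and 116202 (-0.13) and EEF1A1 at 90746 and 87258 (-0.06).

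Of 17 keratins, 8 reached 100 and 5 were raised, against 2.4% of all genes: KRT7, KRT8, KRT15, KRT18 and KRT19. KRT15 went from 251 to 732 (1.54) and KRT7 from 34175 to 80546 (1.24). The hair keratins KRT81 and KRT86 were at 8792 and 6485 (-0.44) and at 420 and 283 (-0.57). The median was 1.35 over the 8 and 0.34 over all 17. KRT4, which is in no list and was chosen after its values were seen, was lowered from 9591 to 1735 (-2.47). KRT8 overlaps KRT18 at its end on the reference.

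Fatty acid synthesis rose at its regulator and at 2 enzymes. Of 12 genes, 9 reached 100, 3 were raised, against 2.4% of all genes, and the other 6 had log2 fold changes of 0.04 to 0.73. SREBF1, the transcription factor of lipid synthesis, was at 8108 with DMSO and 30582 with JQ1 (1.92, interval 1.89 to 1.94). SCD, which desaturates stearate, was at 15512 and 44773 (1.53), and ACLY and ACACA, the steps before FASN, were at 14780 and 15216 (0.04, and -0.10 with equal totals) and at 1584 and 1726 (0.12). In the sterol pathway 20 of 22 genes reached 100 and 2 were raised, LSS (1037 to 2240) and INSIG1 (594 to 1345), with a median of 0.31. Among glycolysis genes 19 of 20 reached 100 and 2 were raised, GAPDH and ALDOA (34093 to 76522, 1.17), and the median was 0.09, or -0.06 with equal totals. With equal totals GAPDH and LSS fell short of 2-fold, at 0.98 and 0.96.

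Of 14 immediate early and AP-1 genes, 9 reached 100, all 9 were above 0, and 4 were raised, with a median of 0.96. Over all 9962 genes, 4527 were above 0 and 5435 below. JUN, a core AP-1 subunit, was at 396 with DMSO and 1543 with JQ1 (1.96, interval 1.83 to 2.10). EGR1 was at 225 and 657 (1.54), JUND at 1089 and 2843 (1.38) and IER2 at 1394 and 3328 (1.26). ATF3 was at 205 and 398 (0.96), and JUNB and NR4A1 were at 697 and 1202 (0.79) and at 478 and 833 (0.80).

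The list of MAPK feedback genes, many of which ERK signalling switches on and which then restrain it, had 15 members. Of these, 9 reached 100, 7 of them above 0, 3 were raised and 1 was lowered, and the median was 0.89. Over all 9962 genes, 4527 were above 0, 2.4% were raised and 5.95% lowered. The same 9 genes had a median of 0.05 with none raised when JQ1 was added to lapatinib, and of -0.42 with 1 raised in BT474m1. SPRY4 went from 126 to 534 (2.08) and DUSP5, a nuclear ERK phosphatase, from 143 to 390 (1.44). DUSP4 was the raised gene nearest to the threshold, at 1105 and 2210, and with a pseudocount of 10 its log2 fold change was 0.99 and with equal totals 0.85, both under 2-fold. EPHA4, an ephrin receptor, was lowered from 164 to 50.3 (-1.69). ERRFI1, which binds and inhibits the ERBB kinases, was the raised gene among 6 negative regulators of the ERBB receptors (644 to 2114, 1.71). LRIG1 was at 709 and 617, and CBL at 1514 and 1582.

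The ERBB receptors themselves stayed under 2-fold. EGFR was at 2769 with DMSO and 2758 with JQ1 (-0.01), ERBB2 at 112656 and 154570 (0.46) and ERBB3 at 3623 and 3272 (-0.15). ERBB4 was under 100, at 27.9 and 12.2. EGF was the only 1 of 11 ligand genes to reach 100 (311 and 176, -0.82), and NRG1 was listed at 0 in both libraries. Along the HER2 amplicon on chromosome 17, 9 of 12 genes beside ERBB2 reached 100. All but 1 had log2 fold changes from -0.06 to 0.93. The exception was PPP1R1B (chromosome 17, 39626707 to 39636624), a regulator of protein phosphatase 1, which was lowered from 394 to 45.1 (-3.10). GRB7, an adaptor of HER2, was at 5154 and 8956 (0.80).

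The genes lowered most belonged to no single family. Listed first by its log2 fold change was ZNHIT2, at 104 with DMSO and listed at 0 with JQ1. In the other 6 libraries it ranged from 0 to 415, including 0 in BT474m1 with DMSO, so a 0 here may be a failed estimate and no fold is given. TBATA was at 126 and 1.93, which is 3 reads with JQ1 (-5.44, interval -8.32 to -4.46). CBLN2, a cerebellin, was at 228 and 4.51 (-5.37).

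COL5A2, a fibrillar collagen chain (chromosome 2, 189031898 to 189441111), was at 1362 and 45.1 (-4.89, interval -5.28 to -4.57). IGFBP5, which binds insulin-like growth factors (chromosome 2, 216672105 to 216695549), was at 17021 and 577 (-4.88, interval -4.98 to -4.79). COL15A1, a basement membrane collagen, was at 178 and 5.80 (-4.72). Of 12 genes of the IGF system 4 reached 100, and apart from IGFBP5, IGF2R, IGFBP2 and IRS1 were at 0.82, 0.02 and -0.49. Under 100, IGFBP7 was at 46.5 and 7.09 and IGFBP3 at 12.2 and 0.64, and with a filter of 10 the median of the list was -1.52 in place of -0.24.

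ACSL5, a long-chain acyl-CoA synthetase that overlaps ZDHHC6, was at 372 and 14.2 (-4.62). ALDH3B2, an aldehyde dehydrogenase, was at 877 and 52.2 (-4.04). CYP4Z1, a fatty acid hydroxylase known from breast, was at 101 and 5.17 (-4.04), and GLYATL2, a glycine acyltransferase, was at 156 and 9.66 (-3.88). The rest of the 15 were NUPR1, a stress-induced chromatin protein (257 to 12.2), OTOR (196 to 9.66), NOS3, which overlaps ATG9B (123 to 5.95), MAB21L4 (1808 to 105) and TARP, at the T cell receptor gamma locus (429 to 24.3).

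Of 11 genes in the list of SRC and PTK6 family kinases, 6 reached 100, with 3 above 0, 3 below and a median of -0.04. SRC was at 494 with DMSO and 133 with JQ1 (-1.89, interval -2.13 to -1.67), and PTK6, a breast tumour kinase related to it, was at 163 and 64.4 (-1.33). They were the 2 lowered genes of the list. YES1, also a SRC family kinase, was at 2603 and 3139 (0.27). Of the other receptor kinases 13 of 22 reached 100, with 6 above 0, 7 below and a median of -0.19. TYRO3 was lowered from 918 to 249 (-1.88) and MET, the receptor of hepatocyte growth factor, from 1329 to 380 (-1.80), and FGFR3 was raised from 705 to 1532 (1.12; 0.97 with equal totals). FGFR2 was just short of 2-fold (961 and 483, -0.99), and DDR1 was at 6815 and 3637 (-0.91).

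Most luminal transcription factors were near level. Of 17, 14 reached 100, with a median of -0.10. FOXA1 was at 5198 and 6197 (0.25), GATA3 at 1623 and 1793 (0.14), SPDEF at 4951 and 4344 (-0.19) and TRPS1 at 10760 and 10480 (-0.04). The 2 lowered were TFAP2B (117 to 10.3, -3.39) and EHF, an epithelial ETS factor (414 to 134, -1.62). XBP1 was at 10526 and 5913 (-0.83) and ELF3, another epithelial ETS factor, at 6415 and 11627 (0.86).

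Products of secretory epithelium moved both ways. Of 18, 6 reached 100. MUC1, the apical mucin, was lowered from 444 to 58.5 (-2.90). S100A8 and S100A9, which form calprotectin, were raised from 220 to 867 (1.98) and from 2107 to 4380 (1.06; 0.91 with equal totals). In the Notch list HES4 (621 to 263, -1.24) and NOTCH3 (1950 to 945, -1.04) were lowered, and NOTCH1, NOTCH2 and HES1 were at -0.13, 0.18 and 0.20. FN1, fibronectin, was lowered from 1180 to 578 (-1.03). Of 3 neuronal genes that reached 100, MAP2, which binds microtubules, was raised (22.9 to 162, 2.77), TUBB3 was raised (470 to 1123, 1.26), and SYT1 was lowered (204 to 72.2, -1.49).

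All 18 mitotic genes reached 100, 17 were below 0, 3 were lowered, and the median was -0.63. FOXM1, their transcription factor, was at 3274 with DMSO and 1348 with JQ1 (-1.28), AURKA at 5110 and 2419 (-1.08), and PLK1 at 2170 and 1065 (-1.03, and just under 2-fold when rescaled by the median of ratios). MKI67, the usual marker of cycling cells, was at 8462 and 6595 (-0.36). Of 21 replication genes 16 were below 0 and none passed 2-fold (median -0.22), and none of 14 homologous recombination genes did (median -0.09). Below 0 lay 5435 of all 9962 genes. RRM2, a ribonucleotide reductase subunit, was at 7440 and 11020 (0.57) and TK1 at 4846 and 6878 (0.51), whereas MCM2 was at 1822 and 1149 (-0.66). Among G1 regulators, CDKN1A, the p21 inhibitor, was raised from 155 to 604 (1.96), E2F2 was lowered from 523 to 134 (-1.96), and CCND1, cyclin D1, was at 4989 and 8960 (0.84).

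The lists of stress, immune and survival genes held members that moved either way. ASNS, asparagine synthetase, was raised (1140 to 2699, 1.24) and PHGDH, of serine synthesis, was lowered (615 to 294, -1.06), while the median of the 13 ATF4 and endoplasmic reticulum stress genes was -0.31. None of 11 heat shock chaperones passed. Of 19 lysosome and autophagy genes 17 were above 0 (median 0.32), against 4527 of 9962 in all, and MAP1LC3B was raised (752 to 1524, 1.02; 0.87 with equal totals). IRF7 (120 to 296, 1.30) and RIGI (83.8 to 212, 1.33) were raised and OAS3 was lowered (112 to 40, -1.46) among 6 interferon-stimulated genes. B2M, the light chain of MHC class I, was raised from 4678 to 9573 (1.03; 0.89 with equal totals), while TAP1, TAP2 and TAPBP lay at -0.26, -0.58 and -0.30. None of 5 NF-kappaB targets passed. In the BCL2 family BBC3, which encodes PUMA, was raised from 56.5 to 175 (1.61), and MCL1 was at 5377 and 10527 (0.97).

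**Figure D3:**
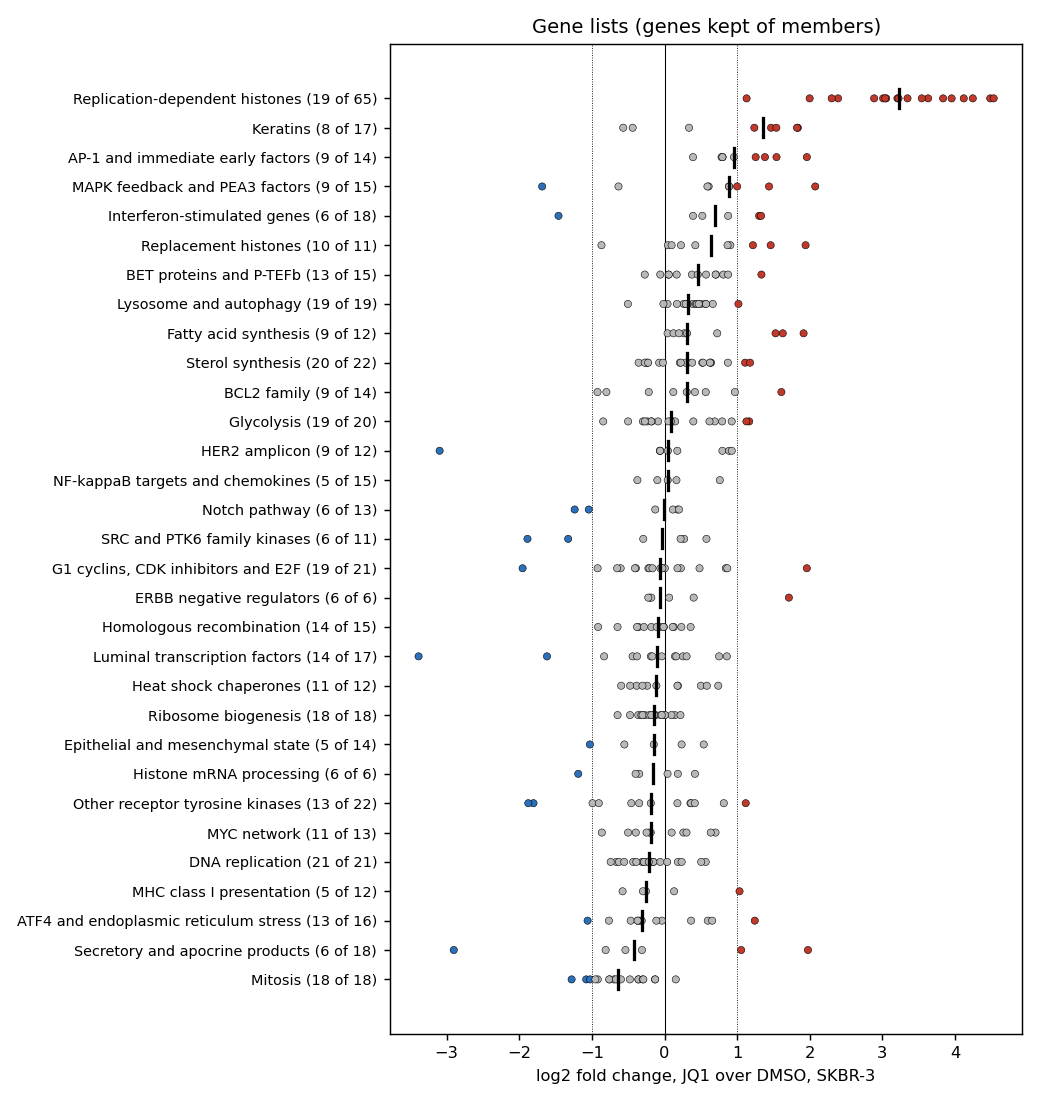
Points are the log2 fold changes of JQ1 over DMSO in SKBR-3 for the genes of 100 or more in each list with at least 5 of them; black bars are list medians, red and blue points are genes raised and lowered at least 2-fold, and the numbers in brackets give genes kept of members. The histone list, at a median of 3.22 over its kept genes, 13 of which reached 100 only with JQ1, lies to the right of all others, and mitosis, at -0.63, lies lowest.

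Libraries that took no part in choosing these genes measured JQ1 again. In SKBR-3, both drugs against lapatinib raised 1.87% and lowered 9.96% of the 9962 genes at least 2-fold. In BT474m1, JQ1 against DMSO raised 2.63% and lowered 6.34%. Of the 593 lowered genes, 488 (82.3%) were lowered at least 2-fold when JQ1 was added to lapatinib, and 293 (49.4%) were in BT474m1. The median log2 fold change of the 593 was -1.61 and -0.99 there. Of the 239 raised genes, 102 (42.7%) were raised at least 2-fold when JQ1 was added to lapatinib and 89 (37.2%) in BT474m1, with medians of 0.87 and 0.81. Of the lowered genes, 1.01% were above 0 when JQ1 was added to lapatinib and 10.5% in BT474m1, against 43.1% and 46.4% of all 9962 genes. Of the raised genes, 7.95% and 13.4% were below 0, against 56.9% and 53.4%.

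**Figure D4:**
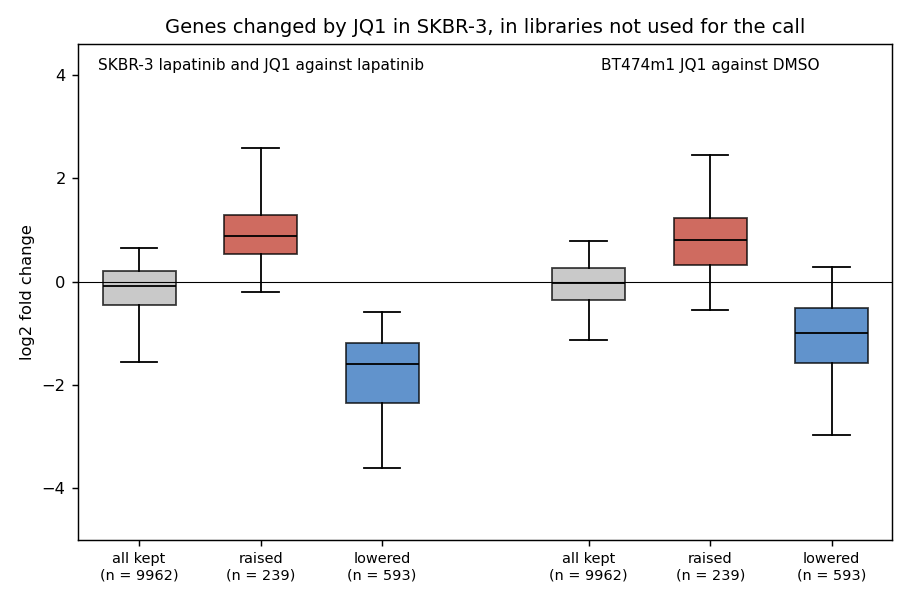
Boxes give the quartiles and median of the log2 fold change, and whiskers the 5th and 95th percentiles, for all 9962 genes (grey) and for the genes raised (red) and lowered (blue) by JQ1 in SKBR-3, in 2 comparisons that share no library with that call. The medians are 0.87 and -1.61 with JQ1 added to lapatinib and 0.81 and -0.99 in BT474m1, against -0.08 and -0.04 for all genes.

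Genes changed in all 3 comparisons numbered 56 of the 239 raised and 262 of the 593 lowered, and 17 of the 56 were replication-dependent histones. H4C14 was at 302 with lapatinib and 3720 with both drugs, and at 136 and 1401 in BT474m1 with DMSO and JQ1. Summed over the 65 histone genes, the value was 4391 with lapatinib and 16580 with both drugs, and 3689 and 11743 in BT474m1. JUN, KRT15 and MAP2 were also raised in all 3, with JUN at 844 and 2220 and MAP2 at 140 and 940 in BT474m1. KLF2, a zinc finger factor chosen after its values were seen, was raised from 176 to 1578 in SKBR-3, from 47.5 to 202 on top of lapatinib and from 529 to 1680 in BT474m1.

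Of the genes lowered in all 3 comparisons, IGFBP5 was at 38861 and 1438 in BT474m1 and at 28073 and 2470 in SKBR-3 with lapatinib and with both drugs. MAB21L4 was at 309 and 15 and at 1961 and 85.3 in the same order. TARP, PPP1R1B and KRT4 were also among them, as were SRC, TYRO3, MET and EHF. SRC was at 379 and 79.2 in BT474m1, TYRO3 at 333 and 86.5, MET at 1227 and 517, and EHF at 2847 and 432. COL5A2 was lowered with and without lapatinib in SKBR-3 and was at 1462 and 1018 in BT474m1 (-0.52).

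The lists did not all move in these libraries as they had with JQ1 alone in SKBR-3. For the immediate early and AP-1 genes the median was 0.68 on top of lapatinib and 0.36 in BT474m1, against 0.96, and for the keratins it was 0.82 and 0.46, against 1.35. For the sterol genes it was 0.00 and -0.08, against 0.31, and for fatty acid synthesis -0.17 and 0.12, against 0.31. The mitotic genes were at -2.67 and -1.02, against -0.63, and the replication genes at -1.09 and -0.83, against -0.22. The ATF4 and endoplasmic reticulum stress genes were at 0.71 and -0.18, against -0.31. These differences between comparisons were not tested.

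Some raised genes were near level when JQ1 came on top of lapatinib. Of the 239, 64 (26.8%) differed by under 1.5-fold between both drugs and lapatinib, as did 26 (4.38%) of the 593 lowered genes and 73.9% of all 9962. MRFAP1L2 was at 238 with lapatinib and 217 with both, NUDT19 at 541 and 457, where JQ1 alone had raised it from 485 to 2827, and H2BC12 at 1679 and 1518. FASN was at 95035 and 126490, a log2 fold change of 0.41. DHRS2 was raised there from 12380 to 131021, and stood at 1266 and 1343 in BT474m1 with DMSO and JQ1. The difference between JQ1 alone and JQ1 on lapatinib was not tested.

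Lapatinib against DMSO shares the DMSO library with the JQ1 comparison, so its values are only set beside it. ERBB2 was at 277859 and ERBB3 at 9897 with lapatinib, log2 fold changes of 1.30 and 1.45 against 0.46 and -0.15 with JQ1. For the mitotic list the median was -3.66 under lapatinib and -0.63 under JQ1, and the sum over all 65 histone genes was 4391 with lapatinib and 27628 with JQ1, against 3270 with DMSO. DHRS2 was at -2.20 with lapatinib and 2.17 with JQ1, SPRY4 at -2.83 and 2.08, MUC1 at 3.38 and -2.90, NUPR1 at 3.26 and -4.28, and EHF at 1.72 and -1.62. IGFBP5 was at 0.72 and -4.88, and SRC at 0.00 and -1.89.

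The changed genes also differed in structure. Exon number and GC content were taken from the Ensembl canonical transcript for 9899 of the 9962 genes. Of 255 single-exon genes, 13.7% were raised and 2.35% lowered, and without the replication-dependent histones 6.78% of 236 were raised and 2.54% lowered. Among 5923 genes with 6 to 20 exons 1.59% were raised and 5.84% lowered. These shares include genes that entered only through their higher library: with 100 or more in both libraries, 8.37% of 215 single-exon genes were raised and 1.4% lowered, and without the histones 5.74% of 209 were raised. For 6 to 20 exons they were then 1.28% and 3.2%. The share raised went from 0.81% in the quintile of lowest GC content to 4.35% in that of highest GC content, and the share lowered from 4.24% to 8.96%. With 100 or more in both libraries they went from 0.53% to 3.43% and from 2.06% to 5.37%. Genes of the shortest quintile by genomic length were raised in 4.68% of cases (3.91% without the histones) and lowered in 5.64%, and those of the longest quintile were raised in 1.66% and lowered in 6.59%. With 100 or more in both libraries the shares were 3.5% and 2.74% in the shortest and 0.97% and 3.46% in the longest. The separate parts of exon number, GC content, length and level were not tested.

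**Figure D5:**
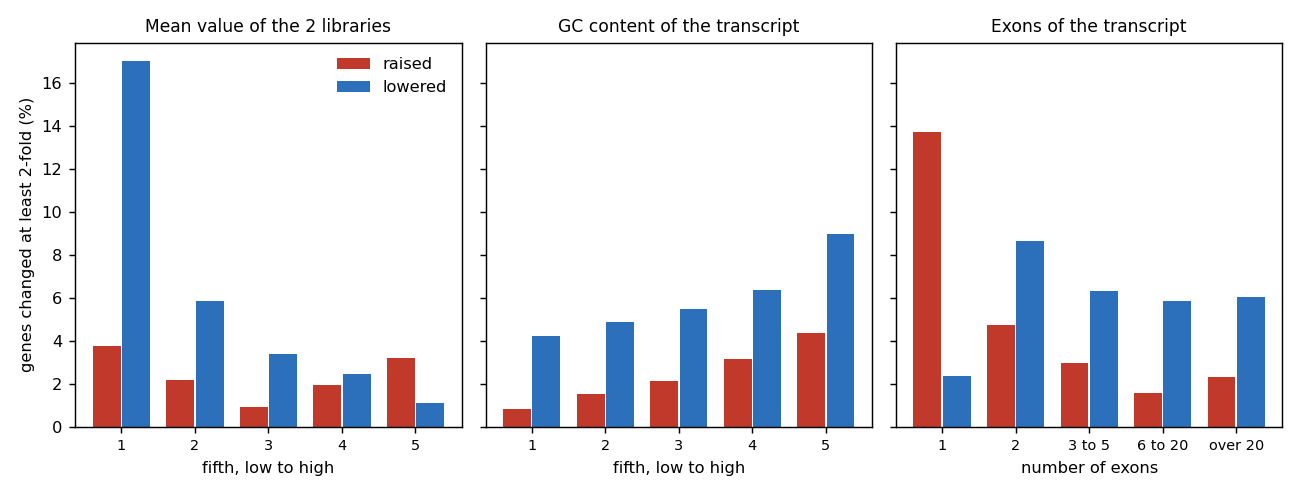
Bars give the percentage of genes raised (red) and lowered (blue) at least 2-fold by JQ1 in SKBR-3, by quintiles of the mean value, by quintiles of transcript GC content and by exon number. Single-exon genes were raised in 13.7% of cases, and the lowest quintile by mean value was lowered in 17%.

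Neighbouring genes sometimes moved together. In 9 places at least 3 successive genes of 100 or more on GRCh38.p14 were all raised (4 places) or all lowered (5 places). Of the 36 genes in these runs 24 were under 100 in the library where they were lower, and neighbours under 100 in both libraries could not break a run. The run with the most genes was on chromosome 6 from 26055740 to 26285534, where 9 successive genes were raised, from H1-2 to H4C8, all histones. Another 2 held histones alone, with H2BC11, H2AC11 and H2BC12 on chromosome 6 (27132316 to 27146858) and H2BC18, H4C14, H3C14, H2AC18 and H2BC21 on chromosome 1 (149782689 to 149886682). The last raised stretch lay in the epidermal differentiation complex on chromosome 1 (152084141 to 153422583), with TCHHL1, IVL, S100A9 and S100A8. IVL, involucrin, was at 395 and 1497 (1.92). In that stretch the tables list 48 genes, of which only these 4 reached 100.

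Among the lowered stretches, CYP4B1, CYP4Z2P and CYP4Z1, a group of cytochrome P450 genes on chromosome 1 (46799046 to 47118318), had log2 fold changes of -2.37, -2.33 and -4.04. CYP4Z1 and its pseudogene CYP4Z2P are close copies, so their reads may be shared. SEMA3B, IFRD2 and HYAL1 on chromosome 3 (50260226 to 50312381) were at -2.58, -1.52 and -1.60. IFITM2 and IFITM1, interferon-induced membrane proteins of close sequence, and PGGHG beside them on chromosome 11 (289126 to 315272) were at -1.35, -2.08 and -1.07. IKBKE, RASSF5 and EIF2D on chromosome 1 (206470476 to 206612465) were at -1.68, -1.76 and -1.29, and SLITRK5, GPC5 and GPC6 on chromosome 13 (87671371 to 94408020) at -2.79, -2.77 and -1.64.

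The thresholds cut through a continuous range. Just inside the lower one stood HMMR (1069 and 534), ASPSCR1 and BNIP1, and just outside it PON2 (2064 and 1032) and SERPINH1 (323.6 and 161.7). Just inside the upper one stood DUSP4, KLF6 (1147 and 2301) and TBCK, and just outside it DGAT1 (853 and 1707) and DIABLO. At the filter, CES3 and ZFP69 entered at 100.2 with DMSO, and METTL25 and CEP162 stayed out at 99.9 with JQ1.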

How the data were processed

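The deposited tables give each gene a signal, which the authors made by estimating reads with RSEM and setting the upper quartile of detected genes to 1000. The submitters' processing notes name hg19, Picard 1.88, SAMtools 1.2, RSEM, DESeq, DESeq2 1.12.3 and R 3.2.2. The methods of the study name other tools for alignment and quantification and a shorter exposure, and the labels were followed. A figure legend of the study gives 48 h for RNA of SKBR-3 cells with DMSO or lapatinib. The labels name 2 library kits, and whether counting used the strand is not given in the sources used here, so overlapping genes are uncertain. Of 20531 genes, 20372 had an Entrez identifier in RefSeq (GRCh38.p14), from which positions were taken. Reads were not placed on that build.

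The tools were scipy 1.17.1, pandas 2.3.3, numpy 2.4.6 and matplotlib 3.10.9 under Python 3.11.15. A gene was kept where either SKBR-3 library reached 100, and log2 fold changes were taken after adding 1 to each value. The value of 1 read was recovered as the common step between values, 0.716 with DMSO and 0.644 with JQ1. With it, 84.6% and 84.7% of the values above 0 were whole reads within 0.01, and the rest were fractional estimates, which were rounded for the intervals. A count of 0 allows up to 3 reads, worth 2.15 and 1.93. Exon number and GC content came from GENCODE 44.

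Named were all kept members of the lists of BET proteins and P-TEFb, BET inhibitor markers, ERBB receptors and the MYC network, the 15 genes raised and the 15 lowered most, the 10 of highest value in each library, up to 5 members each of highest value and largest change in the other lists, the runs of neighbours and genes beside the thresholds. There were 36 lists. The values of a few members are not reported here. The members and lists were chosen with earlier results of these data known. The rule for the calls was tried on simulated reads with known changes well past 2-fold. That code was separate from the code that made the reported calls, and neither smaller changes nor the intervals were tried. With 1 library a side, SKBR-3 JQ1 against DMSO has no test, and a fit of JQ1 over all 8 libraries was not run. The alternatives were a pseudocount of 10, filters of 10, 1000 and none, scaling to equal totals or by the median of ratios, a 1.5-fold threshold, and a count of only those genes whose interval excluded no change.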

Additional observations from a re-analysis of the deposited data

Results flagged for a closer look

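Several genes moved at least 2-fold with JQ1 in both lines but in opposite directions. They are given as the log2 fold change in SKBR-3 minus that in BT474m1, and the difference was not tested, since each group held 1 library. Of the 832 genes changed in SKBR-3, 15 were opposite, and 6 of the 15 had a value of 100 or more in BT474m1. Of the 239 raised genes 2.51% were lowered there, against 6.34% of all genes, and of the 593 lowered genes 1.52% were raised, against 2.63%.

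S100A8 differed by 4.03 and S100A9 by 2.89, both higher with JQ1 in SKBR-3. In BT474m1 both were low, with S100A8 at 21.2 and 4.35 and S100A9 at 19.8 and 4.83 for DMSO and JQ1. Within SKBR-3, S100A8 was at 75 with lapatinib and 61.9 with both drugs, and S100A9 at 663 and 470. BHLHE40, a circadian repressor, differed by 2.94 (282 and 610 in SKBR-3, 259 and 72 in BT474m1), and on top of lapatinib it was at 25.3 and 3.44 in SKBR-3. ANXA1, annexin A1, differed by 2.62 (94.5 and 227, 131 and 50.2), and was at 66.6 with lapatinib and 50.2 with both drugs in SKBR-3.

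PKIA, an inhibitor of protein kinase A, differed by -3.92 (377 and 57.3 in SKBR-3, 571 and 1342 in BT474m1). POLR2J2, which has close copies that can share its reads, differed by -3.91 (570 and 120, 150 and 482). UPK3BL1, joined to POLR2J2 by a readthrough transcript, moved the other way in each line (6.59 and 114, 74.3 and 0). Whether reads passed between these genes was not tested. SNX10, a sorting nexin, differed by -2.67 (194 and 69.6, 257 and 593). With lapatinib and with both drugs, PKIA was at 405 and 43.3 in SKBR-3 and at 375 and 534 in BT474m1, POLR2J2 at 607 and 106 and at 740 and 669, and SNX10 at 322 and 96.3 and at 887 and 522. All 3 were thus lower with JQ1 on top of lapatinib in SKBR-3. In BT474m1 on top of lapatinib, PKIA was higher with JQ1, as with JQ1 alone, and POLR2J2 and SNX10 were lower.

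With lapatinib and with both drugs in BT474m1, BHLHE40 was at 81.3 and 14.6, ANXA1 at 73.5 and 33.2, S100A8 at 6.63 and 1.17, and S100A9 at 3.01 and 0.58. On top of lapatinib, JQ1 went with lower values of these 4 genes in both lines. Of the 7 genes given with a difference between the lines, those other than S100A8 and S100A9 were chosen after their values were seen.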

How the results depend on the processing

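The count of raised genes, 239, and of lowered genes, 593, depended on the filter and the threshold. A filter of 10 gave 418 raised and 1324 lowered, no filter 746 and 2137, and a filter of 1000 gave 114 and 105, so that the excess of lowered genes was lost. A 1.5-fold threshold gave 743 and 1393. Both counts stayed within 1.5 times of the reported ones with a pseudocount of 10 (226 and 539), with scaling by the median of ratios (248 and 564) or to equal totals (169 and 780), and when only genes whose interval excluded no change were counted (239 and 593). The overlaps with the other libraries also stayed within 1.5 times under the 3 alternatives run for them. For 272 named genes, 24 of 816 alternative values under a pseudocount of 10 or either scaling changed sign. None was of a called gene, which could not change sign there: a pseudocount keeps the sign, and the scalings shifted values by under 0.15. Of 267 alternative values of called genes, 9 fell under 2-fold, all for genes within 0.15 of the threshold. Of 214 alternative medians of the lists, 19 changed sign, none of a median past 2-fold. With a filter of 1000 the BET inhibitor markers went from 0.63 to -0.31 and the ERBB negative regulators from -0.06 to 0.89. The secretory products went from -0.42 to 0.26, the luminal factors from -0.10 to 0.15 and the SRC and PTK6 family kinases from -0.04 to 0.25. Of 18 alternative medians of lists past 2-fold, 3 fell under it. The keratins went from 1.35 to 0.34 with a filter of 10 and with none, and the neuronal genes from 1.26 to 0.07 with none. With 1 library a side, no library could be left out, and a paired fit over the 4 pairs of libraries with and without JQ1 was not run. Depth limits low genes most: 1 read was worth 0.716 with DMSO and 0.644 with JQ1.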

Other observations

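PEG10, an imprinted gene derived from a retrotransposon, was chosen after its values were seen. It was at 3457 with DMSO and 30173 with JQ1 in SKBR-3 (log2 fold change 3.13, interval 3.08 to 3.17). OCLNP1, an occludin pseudogene that can share reads with its parent gene, was raised with JQ1 alone (20.3 to 138) and was at 135 with lapatinib and listed at 0 with both drugs.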
